A study of Mus musculus with 16 samples.

Results

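The genes described here encode the proteins that coat the lipid droplet and the proteins that start the breakdown of its triglyceride. They were chosen by name, with earlier results of these data known, so the counts below do not test them as a set. They are the perilipins Plin2, Plin3, Plin4 and Plin5 and the CIDE proteins Cidea, Cideb and Cidec. The lipase Pnpla2, its inhibitor G0s2 and its coactivator Abhd5 complete the list. All 10 were measured, each by 1 probe set, among 19935 genes and 21780 probe sets that carried a single gene symbol.

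Liver RNA of male mice on a mixed Sv129/C57Bl/6 background was hybridised to Affymetrix whole-transcript arrays, with a separate array for each mouse. The mice were wild-type or knockout for PPARβ/δ, the fatty acid-sensing nuclear receptor encoded by Ppard, and were either fed or fasted for 24 h. Of the wild-type mice 4 were fed and 5 fasted, and of the knockout mice 4 were fed and 3 fasted. The study's design text states 4 to 5 animals in each group, and whether a knockout fasted array was left out is not known. The sources used here do not give their age, the deleted part of Ppard or whether knockout and wild-type mice were littermates.

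Hepatocytes store surplus fatty acids as triglyceride in droplets surrounded by a single phospholipid layer, and perilipins bind that layer and control access of lipases to the core. Pnpla2, also called ATGL, removes the first fatty acid from triglyceride. Abhd5, also called CGI-58, activates it and G0s2 binds and inhibits it, while CIDE proteins move lipid between droplets that touch and so enlarge them. In fasting, the liver takes up fatty acids released by adipose tissue, part of which pass through droplets before they are oxidised or secreted, and several droplet genes are known targets of the related receptor PPARα.

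Values are log2 intensities, and a gene counted as changed at a limma p under 0.05 after Benjamini-Hochberg adjustment over all genes. Changes are given with the standard error (SE) of the fit. Array medians of the linear intensity lay between 8.08 and 8.61. Hepatocyte markers were bright in every mouse, with Alb, the gene of albumin, at 12.19 to 12.44. Of 12 adipocyte markers, 8 had means below 2.79, the 40th percentile of all genes used here to mark dim signal, and Adipoq, which fat cells secrete, lay at 1.75 to 2.35. No adipocyte marker changed in any of the 4 comparisons between groups. The mean adipocyte marker level, centred per gene, spanned -0.18 to 0.15 (fed) and -0.11 to 0.05 (fasted) in wild-type mice, and -0.13 to 0.31 (fed) and -0.08 to 0.09 (fasted) in knockout mice. Knockout fed mice stood apart in Kupffer cell and macrophage markers, which lay at 0.35 to 0.47 in them and at or below 0.19 in all other mice. Acute phase genes lay at 2.28, 1.22 and 0.68 in knockout fed mice 4, 1 and 3, against at most 0.23 in the other groups. Knockout fed mouse 2, at -0.30, lay within the wild-type fed range of -0.38 to -0.02. Ppard itself lay at 4.45 to 5.00 in knockout fed and 4.78 to 5.50 in wild-type fed mice, and at 4.36 to 4.58 and 4.40 to 4.67 in the fasted groups. Since the position of its probes relative to the deletion is unknown, these levels do not check the genotype labels.

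The first comparison asked how a 24 h fast altered these genes in wild-type liver. Plin2, Plin4, Plin5 and Pnpla2 rose and Abhd5 fell, so that 5 of the 10 genes changed, against 9.22% of all genes tested (3.3% rose and 5.92% fell). Of the 10, 6 had fasted and fed mice that did not overlap, against 12.2% of all genes. The median change of the 10 genes was 0.90 on the log2 scale, and that of all genes was 0.03. In whole liver, a shift in the number of cells of a type and a shift in RNA per cell cannot be told apart. Of 9 hepatocyte markers 2 also rose in this comparison, and their mean level spanned -0.10 to -0.05 in fed and 0.06 to 0.15 in fasted wild-type mice. Of 15 acute phase genes 2 fell, Fgg and Fgb. The part of these shifts in the changes below was not tested.

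The sequences just upstream of the 4 genes that rose are shown because these genes moved together. They are the 250 bases before the RefSeq start site (GRCm38.p6), on the strand of the gene, with the letters TATAA, the core of a TATA box, in capitals. Plin5 and Plin4 lie on the minus strand of chromosome 17 at chr17:56117549-56117798 and chr17:56109783-56110032, Plin2 on the minus strand at chr4:86670060-86670309, and Pnpla2 on the plus strand at chr7:141454938-141455187. For Plin5 the farther upstream of its listed windows is shown.
Plin5: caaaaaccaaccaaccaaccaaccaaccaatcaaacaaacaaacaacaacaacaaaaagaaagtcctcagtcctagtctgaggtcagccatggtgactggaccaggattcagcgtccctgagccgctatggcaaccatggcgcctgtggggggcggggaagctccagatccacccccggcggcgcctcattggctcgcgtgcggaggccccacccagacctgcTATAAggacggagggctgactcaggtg
Plin4: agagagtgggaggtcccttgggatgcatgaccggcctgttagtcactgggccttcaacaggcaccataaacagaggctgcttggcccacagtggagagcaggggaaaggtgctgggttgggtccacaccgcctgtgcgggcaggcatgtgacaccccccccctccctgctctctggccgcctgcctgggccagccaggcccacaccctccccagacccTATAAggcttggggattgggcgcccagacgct
Plin2: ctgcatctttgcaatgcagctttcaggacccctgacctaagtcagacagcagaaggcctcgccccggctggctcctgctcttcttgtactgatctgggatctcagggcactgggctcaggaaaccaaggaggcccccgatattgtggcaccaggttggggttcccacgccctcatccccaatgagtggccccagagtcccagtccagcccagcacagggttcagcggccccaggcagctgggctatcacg
Pnpla2: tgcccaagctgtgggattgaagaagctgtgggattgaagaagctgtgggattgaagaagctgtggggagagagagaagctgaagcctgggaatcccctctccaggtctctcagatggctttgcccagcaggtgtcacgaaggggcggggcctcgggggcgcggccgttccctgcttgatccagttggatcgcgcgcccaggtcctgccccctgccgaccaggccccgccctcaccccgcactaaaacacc

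The start sites of Plin4 and Plin5 were 7766 bases apart with 0 RefSeq genes between them. Plin3 also lay on chromosome 17, with 9 genes between it and Plin5, as did Ppard, with 846 genes between it and Plin4. TATAA began 27 bases before the Plin5 start and 32 bases before the Plin4 start, and it was absent from the printed windows of Plin2 and Pnpla2. The second listed window of Plin5 did not hold it, and the window of Cideb, which passed in no comparison, held it 172 bases before the start. In all, 3 of the 11 windows of these genes held it on the gene strand, against 16% of 32851 mouse windows. In 3.52% of all windows it began 20 to 40 bases before the start. This search was chosen after the sequences were seen. The direct repeat that PPAR and RXR pairs bind was searched on both strands, as AGGTCA repeated with any 1 base between and, relaxed, as AGGNCA in the same layout, in windows that ran to 50 bases past the start. It stood in 0 of the 11 windows of the 9 genes that had one, and in 0.0396% and 0.381% of all windows. At shares this low, its absence from 11 windows cannot set these genes apart from others. These letters were looked for nowhere else. Cidea had no listed window.

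**Figure D1:**
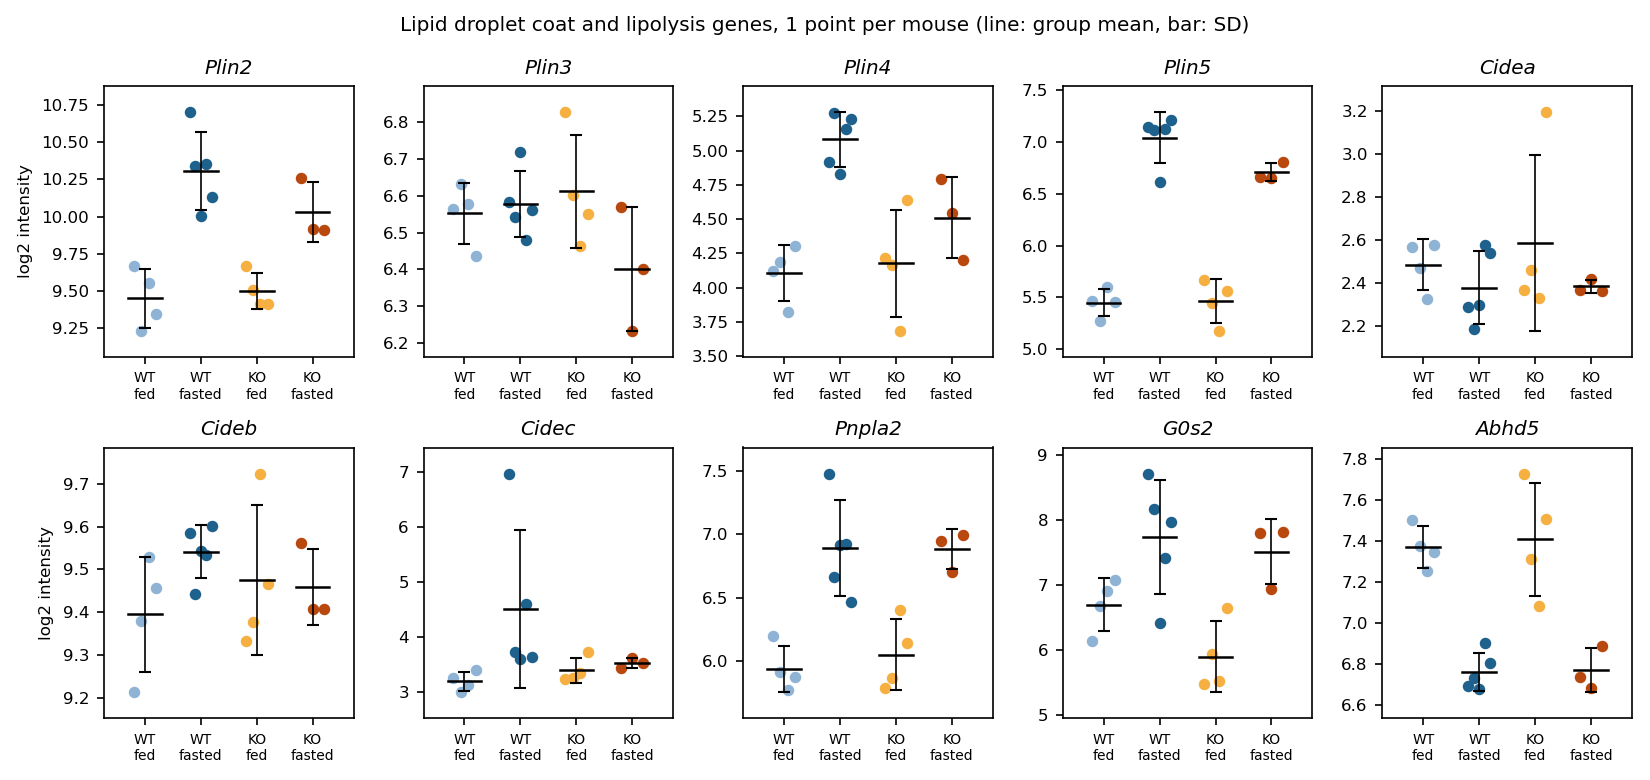
Log2 intensity of each of the 10 genes (1 panel per gene, each with its own y axis) in the 4 groups on the x axis, where WT is wild-type and KO is knockout; each point is 1 mouse, each line a group mean and each bar the SD. Plin5 lay at 5.28 to 5.60 in wild-type fed and 6.61 to 7.21 in wild-type fasted mice, while Cidec was spread over 3.61 to 6.98 in wild-type fasted mice.

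Among the coat proteins, Plin5 had the largest change with fasting. Plin5 binds Pnpla2 and Abhd5 and tethers droplets to mitochondria in tissues that oxidise fat. Its log2 values in wild-type mice were 5.47, 5.28, 5.60 and 5.46 fed and 7.14, 7.11, 6.61, 7.13 and 7.21 fasted. Every fasted mouse lay above every fed mouse, and fasted mouse 3 lay below the other 4 of its group. The rise was 1.59 ± 0.12 (SE), or 3.01-fold, with a limma adjusted p of 6.55e-07. In knockout mice the values were 5.67, 5.44, 5.18 and 5.57 fed and 6.66, 6.65 and 6.81 fasted. Again the groups did not overlap, and Plin5 rose by 1.24 ± 0.14, or 2.36-fold (limma adjusted p = 9.51e-05).

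Plin2, the perilipin that covers most hepatocyte droplets and whose protein is stabilised by lipid, had values of 9.67, 9.23, 9.55 and 9.34 in fed and 10.70, 10.34, 10.01, 10.35 and 10.13 in fasted wild-type mice. All fasted mice were above all fed mice. Plin2 rose 1.81-fold (log2 0.86 ± 0.13, limma adjusted p = 0.000438). Knockout mice had 9.67, 9.51, 9.41 and 9.41 fed and 10.26, 9.92 and 9.91 fasted, likewise without overlap. The difference there was 0.53 ± 0.15, with a limma adjusted p of 0.0561 that missed the threshold. With 1 array left out it passed in 2 of 16 fits, without wild-type fasted mouse 1 (limma adjusted p = 0.0245) or mouse 3 (0.0434). Those mice enter this comparison only through the shared spread and the adjustment. Across the 16 fits the difference was 0.41 to 0.59 and the limma adjusted p reached 0.244. In the 9 other settings that adjusted p ran from 0.0214 to 0.174.

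Plin4, a perilipin with a long repeated helix that is best known from adipocytes and muscle, had values of 4.12, 4.19, 3.83 and 4.30 in fed and 4.92, 5.28, 4.83, 5.16 and 5.23 in fasted wild-type mice. The groups did not overlap. It rose 1.96-fold (0.97 ± 0.17, limma adjusted p = 0.00121). In knockout mice it had 4.22, 4.17, 3.69 and 4.64 fed and 4.79, 4.54 and 4.20 fasted, and knockout fed mouse 4 lay above 2 of the 3 fasted mice. The difference of 0.33 ± 0.19 in knockout mice did not pass (limma adjusted p = 0.441, 95% interval -0.06 to 0.73).

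Plin3, which moves between the cytosol and small new droplets, was nearly level in wild-type mice. It spanned 6.44 to 6.63 in fed and 6.48 to 6.72 in fasted wild-type mice, and 6.46 to 6.83 in fed and 6.23 to 6.57 in fasted knockout mice, and all groups overlapped. Its fasting differences were 0.02 ± 0.09 in wild-type and -0.21 ± 0.10 in knockout mice (limma adjusted p = 0.895 and 0.315). The interval of the wild-type difference, -0.16 to 0.21, does not reach the rises of the other 3 perilipins. That of the knockout difference was -0.42 to -0.0035, with an unadjusted limma p of 0.0466. In that comparison 15.3% of all genes had an unadjusted p under 0.05.

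None of the CIDE genes passed the test in either genotype, and they differed widely in how much their mice varied. Cidec, also called Fsp27, builds large droplets and is known to be low in lean liver and high in fatty liver. Its values were 3.26, 3.00, 3.14 and 3.40 in fed and 6.98, 3.74, 3.61, 4.61 and 3.65 in fasted wild-type mice. All fasted mice lay above all fed mice, but fasted mouse 1 stood far above the other 4. The SD was 1.44 among these fasted mice and 0.17 among the fed ones. The difference of 1.32 ± 0.48 had a limma adjusted p of 0.107. Without fasted mouse 1 it was 0.70 with an adjusted p of 0.024. In that fit Cidec counted as changed, and 6 of the 10 genes did in place of 5. In knockout mice Cidec lay at 3.24, 3.26, 3.36 and 3.74 fed and 3.44, 3.63 and 3.54 fasted, with overlap and a difference of 0.14 ± 0.55 (95% interval -1.02 to 1.30, limma adjusted p = 0.952).

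Cideb, the member of the family typical of liver, which also takes part in loading lipid onto very low density lipoprotein, spanned 9.21 to 9.53 in wild-type fed and 9.44 to 9.60 in wild-type fasted mice. Knockout mice spanned 9.33 to 9.72 fed and 9.41 to 9.56 fasted. Its fasting differences were 0.15 ± 0.09 and -0.02 ± 0.10 (limma adjusted p = 0.326 and 0.973). Cidea, known from brown fat and from steatotic liver, was the 1 gene of the 10 below the dim limit, with 15 of 16 mice at 2.19 to 2.58. Knockout fed mouse 4 was at 3.19. No direction is read from Cidea at this signal, and its fasting differences were -0.11 ± 0.14 and -0.20 ± 0.16 (limma adjusted p = 0.709 and 0.632).

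The lipase rose with fasting in both genotypes. Pnpla2 had values of 6.20, 5.91, 5.77 and 5.87 in fed and 7.48, 6.66, 6.92, 6.93 and 6.47 in fasted wild-type mice. Every fasted mouse was above every fed mouse, and mouse 1 was the highest in each group. The rise was 1.93-fold (0.95 ± 0.17, limma adjusted p = 0.00164). In knockout mice it had 5.79, 5.87, 6.40 and 6.14 fed and 6.95, 6.70 and 7.00 fasted, again without overlap, and rose 1.78-fold (0.83 ± 0.19, limma adjusted p = 0.0213). The knockout call was lost when knockout fed mouse 1 or 2 or knockout fasted mouse 1 or 3 was left out, with adjusted p between 0.0501 and 0.103, and when knockout fed mice 1 and 4 were left out together (0.75, adjusted p = 0.166).

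Abhd5, the coactivator of that lipase, moved the other way in both genotypes. It had 7.50, 7.38, 7.25 and 7.34 in fed and 6.69, 6.73, 6.68, 6.90 and 6.80 in fasted wild-type mice, with every fasted mouse below every fed mouse. The fall was 1.52-fold (log2 -0.61 ± 0.11, limma adjusted p = 0.00135). Knockout mice had 7.73, 7.31, 7.08 and 7.51 fed and 6.73, 6.68 and 6.89 fasted, and the fall was 1.56-fold (-0.64 ± 0.12, limma adjusted p = 0.00608). No single array ended either call. The knockout fall was -0.43 with an adjusted p of 0.0758 when knockout fed mice 1 and 4 were both left out, and its adjusted p was 0.0612 when the knockout groups were fitted alone.

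G0s2, the inhibitor of the lipase and a gene known to respond to both insulin and PPAR, varied most between mice after Cidec. Wild-type fed mice had 6.14, 6.68, 6.91 and 7.08, and fasted mice 8.72, 8.18, 6.41, 7.41 and 7.97. Fasted mouse 3 lay within the fed range and the other 4 above it. The wild-type difference was 1.04 ± 0.37 (limma adjusted p = 0.0973), and without fasted mouse 3 it was 1.37 with an adjusted p of 0.0101, so that 6 of the 10 genes then counted as changed. Knockout mice had 5.48, 5.93, 5.51 and 6.65 fed and 7.80, 6.93 and 7.82 fasted, with no overlap. There G0s2 rose 3.08-fold (1.62 ± 0.42, limma adjusted p = 0.041). That call was close to the threshold. It was lost, with adjusted p between 0.051 and 0.17, when any of 9 arrays was left out: knockout fed mouse 1, 2 or 3, knockout fasted mouse 1, 2 or 3, wild-type fed mouse 2 or 3, or wild-type fasted mouse 4.

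**Figure D2:**
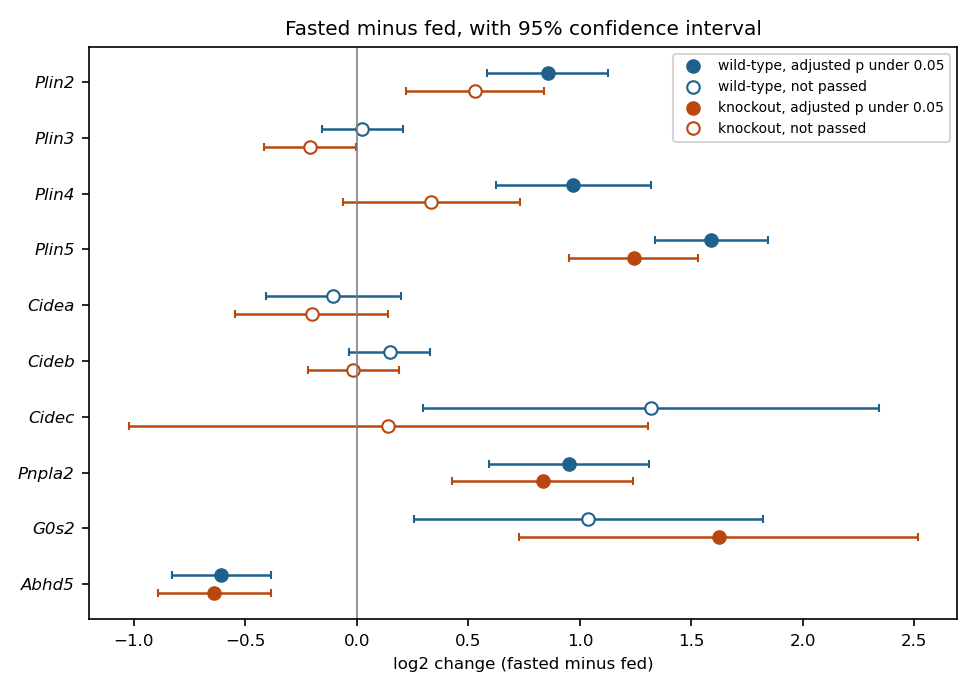
Log2 change with fasting (x axis, fasted minus fed) of each of the 10 genes (y axis) in wild-type and knockout mice, with 95% intervals of the limma fit; filled points passed an adjusted p under 0.05. Plin5 had the largest change that passed in wild-type mice (1.59), Abhd5 changed by -0.61 and -0.64, and the interval of Cidec was the widest.

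In knockout mice, then, Plin5, Pnpla2 and G0s2 rose and Abhd5 fell, which made 4 of 10 genes, against 3.67% of all genes tested (1.87% rose and 1.8% fell). Fed and fasted mice did not overlap in 5 of the 10, against 13.2% of all genes. The median change of the 10 genes was 0.24 and that of all genes -0.02. Plin5, Pnpla2 and Abhd5 changed in the same direction in both genotypes. The count in knockout mice depended on single arrays: it was 2 without knockout fed mouse 1, knockout fed mouse 2, knockout fasted mouse 1 or knockout fasted mouse 3, and 1 without knockout fed mice 1 and 4 together, where Plin5 alone passed. That last fit kept only mice 2 and 3 of the knockout fed group, and over all genes it called 218, against 732. The effect of mice 1 and 4 and that of the smaller group cannot be told apart. In the same comparison 2 of 9 hepatocyte markers rose, and 1 of 8 Kupffer cell and macrophage markers and 2 of 15 acute phase genes fell. Knockout fed mice had higher Kupffer cell levels, and all but mouse 2 of them higher acute phase levels. The part in these results of those levels and markers was not tested.

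Within each group some mice lay at the edge in several genes. In wild-type fasted mice, mouse 1 was the highest of the 5 in 4 of the 10 genes (Plin2, Cidec, Pnpla2 and G0s2) and the lowest in none. Mouse 3 was the lowest in 6 (Plin2, Plin4, Plin5, Cidec, G0s2 and Abhd5). Among knockout fasted mice, mouse 2 was the lowest in 6, and among knockout fed mice, mouse 3 was the lowest in 5. Knockout fed mouse 4 was the highest of its group in 4 (Plin4, Cidea, Cidec and G0s2) and the lowest in 1. Knockout fed mouse 1 was the highest in 4 and the lowest in 4. Wild-type fasted mouse 3 also had the highest mean marker level of its group in the acute phase (0.23), Kupffer cell (0.08), hepatocyte (0.15) and stellate cell (0.04) lists and the lowest in the adipocyte list (-0.11). The part of these levels in its droplet gene values was not tested.

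**Figure D3:**
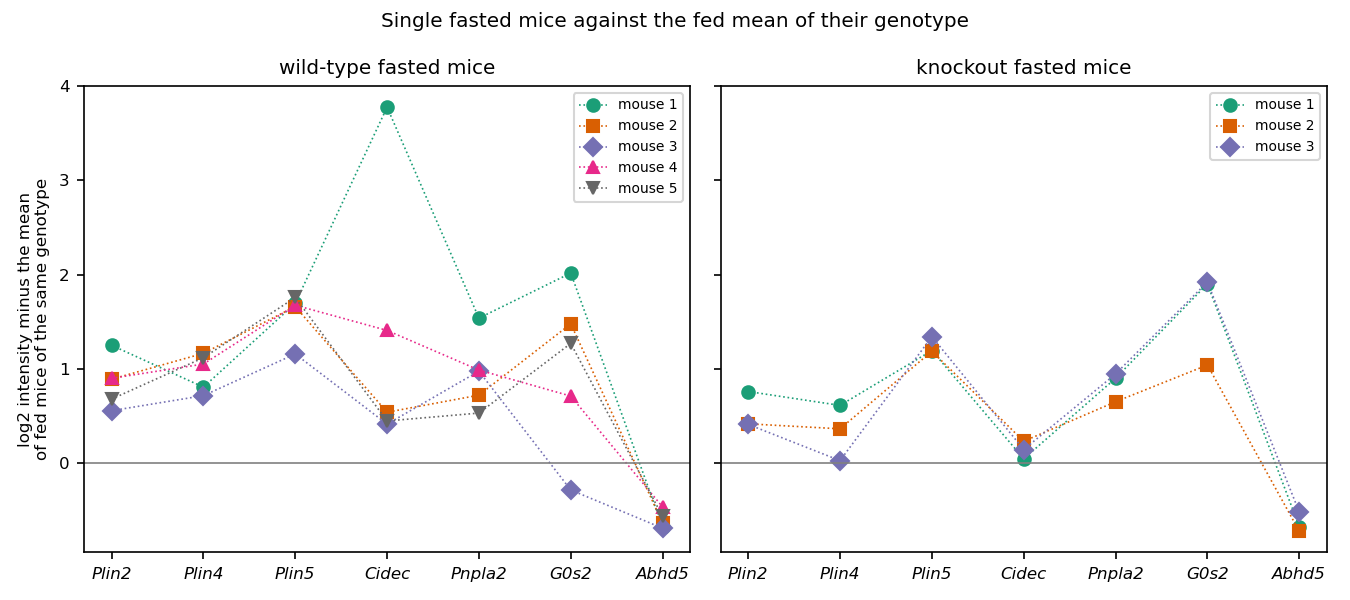
Log2 intensity of Plin2, Plin4, Plin5, Cidec, Pnpla2, G0s2 and Abhd5 (x axis) in single fasted mice, as the difference from the mean of the fed mice of the same genotype (y axis), with wild-type mice in the left and knockout mice in the right panel; dotted lines join the values of 1 mouse and imply no order of the genes. Wild-type fasted mouse 1 was the highest of its group in Cidec, G0s2, Plin2 and Pnpla2, and mouse 3 the lowest in 6 genes.

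The next comparison asked whether knockout and wild-type mice differed in these genes in fed liver. The knockout fed mice also had the higher Kupffer cell levels and, apart from mouse 2, the higher acute phase levels given above. The part of those levels in this comparison, and in the interaction and mean effect below, was not tested. None of the 10 genes passed the limma test and none had an unadjusted p under 0.05, where 0.677% of all genes tested were called and 13.2% had such an unadjusted p. In 0 of the 10 did the groups lie apart, against 6.7% of all genes. For 9 of the 10, counting Cidea, whose direction is not read, the difference was between 0.02 and 0.20 and positive. The median of the 10 was 0.06, against 0.01 for all genes. G0s2 was the exception in sign. Its 4 knockout fed mice, at 5.48, 5.93, 5.51 and 6.65, lay mostly below the 6.14 to 7.08 of wild-type fed mice, with mouse 4 inside that range. The difference was -0.81 ± 0.39, with a 95% interval of -1.63 to 0.02 and a limma adjusted p of 0.396. The intervals for Plin2 (-0.24 to 0.34), Plin5 (-0.25 to 0.28) and Abhd5 (-0.20 to 0.27) leave out differences as large as those seen with fasting in wild-type mice, while that for Cidec (-0.88 to 1.27) is wide.

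In fasted liver, too, none of the 10 genes passed after adjustment, where 0.537% of all genes were called, and 2 had an unadjusted limma p under 0.05, against the 10.4% of all genes that did. Both were perilipins. Of the 10 differences between knockout and wild-type fasted mice, 8 were negative. Their median was -0.20, against -0.02 for all genes. Plin4 was the 1 gene whose groups did not overlap, against 8.25% of all genes: 4.79, 4.54 and 4.20 in knockout against 4.92, 5.28, 4.83, 5.16 and 5.23 in wild-type fasted mice. Its difference was -0.57 ± 0.18, or 1.48-fold lower, with a 95% interval of -0.95 to -0.19, an unadjusted p of 0.00576 and a limma adjusted p of 0.226.

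Plin5 was at 6.66, 6.65 and 6.81 in knockout fasted mice against 7.14, 7.11, 6.61, 7.13 and 7.21 in wild-type ones. All but wild-type mouse 3 lay above the knockout mice. The difference was -0.33 ± 0.13 (95% interval -0.61 to -0.06, limma adjusted p = 0.376). Plin2 differed by -0.28 ± 0.14 (interval -0.57 to 0.02, limma adjusted p = 0.523). Cidec differed by -0.98 ± 0.53 (interval -2.09 to 0.13, limma adjusted p = 0.559), with the knockout mice at 3.44 to 3.63 and wild-type mice 3 and 5 at 3.61 and 3.65. Pnpla2 and Abhd5, at -0.01 ± 0.18 and 0.01 ± 0.11, were nearly equal in the fasted groups. Their intervals were -0.40 to 0.38 and -0.23 to 0.25.

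**Figure D4:**
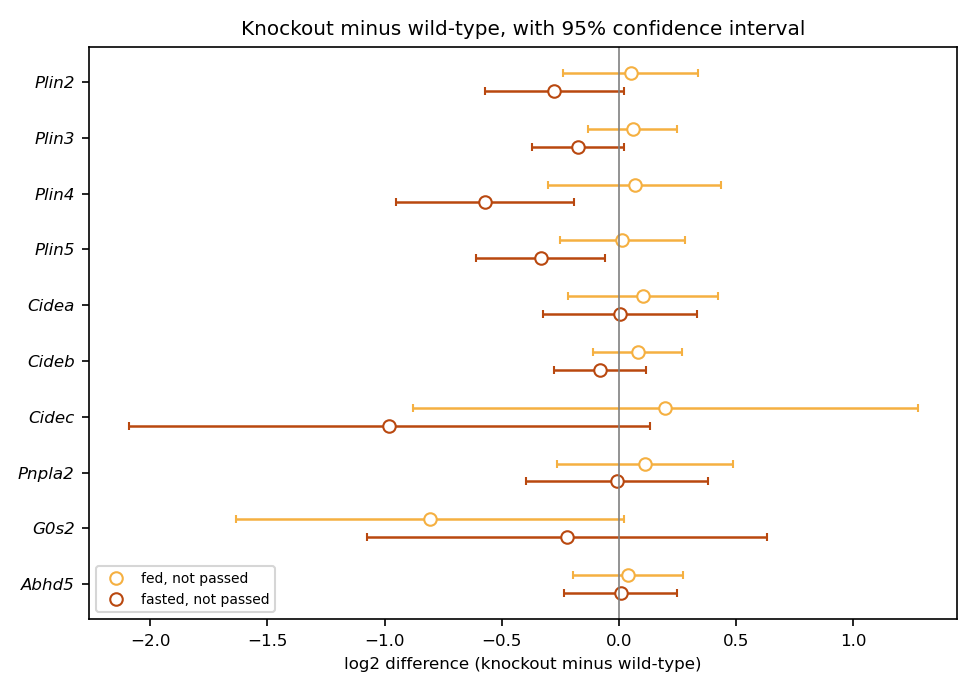
Log2 difference between knockout and wild-type mice (x axis, knockout minus wild-type) of each of the 10 genes (y axis) in fed and in fasted mice, with 95% intervals of the limma fit; open points did not pass an adjusted p under 0.05. All points are open, G0s2 had the lowest value in fed mice (-0.81), and the intervals of Plin4 (-0.95 to -0.19) and Plin5 (-0.61 to -0.06) in fasted mice lay below 0.

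The fasting responses of the genotypes were then compared directly, as the knockout response minus the wild-type response. None of the 10 genes passed the limma test of this interaction, which called 0.01% of all genes, and 1 had an unadjusted p under 0.05, against the 12.2% of all genes that did. That gene was Plin4, with -0.64 ± 0.25 (95% interval -1.17 to -0.11, unadjusted p = 0.0211, limma adjusted p = 0.328). Of the 10 values, 9 were negative, counting Cidea, whose direction is not read, with a median of -0.20 against -0.03 for all genes. Plin5 had -0.35 ± 0.18, Plin2 -0.33 ± 0.20 and Cidec -1.18 ± 0.73, and G0s2 was the 1 positive value at 0.58 ± 0.56 (limma adjusted p between 0.447 and 0.671). For Pnpla2 (-0.12 ± 0.26) and Abhd5 (-0.03 ± 0.16) the intervals ran from -0.66 to 0.42 and from -0.37 to 0.31. So the rise of Plin2 and Plin4 passed in wild-type and not in knockout mice, and that of G0s2 in knockout and not in wild-type mice, but the difference between genotypes passed for none of them.

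Averaged over feeding states, the knockout effect passed for none of the 10 genes and had no unadjusted limma p under 0.05, where 1.55% of all genes were called and 10.8% had such an unadjusted p. G0s2 had the lowest value, -0.51 ± 0.28, followed by Cidec at -0.39 ± 0.37 and Plin4 at -0.25 ± 0.13 (limma adjusted p = 0.561, 0.813 and 0.501).

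Other proteins of the droplet and of lipolysis were followed for context, from lists also chosen with earlier results of these data known. Of 24 measured further droplet proteins, 6 rose and 2 fell with fasting in wild-type mice, where 3.3% of all genes rose and 5.92% fell. Fitm2, which partitions triglyceride into new droplets, rose by 0.77 ± 0.11 (limma adjusted p = 0.000283). The droplet-bound dehydrogenases Hsd17b11 and Hsd17b13 rose by 0.64 ± 0.12 and 0.37 ± 0.08 (limma adjusted p = 0.00214 and 0.00748). Nsdhl, an enzyme of cholesterol synthesis that also sits on droplets, fell by 2.01 ± 0.18 on the log2 scale (limma adjusted p = 2.44e-06). Vps13c, a lipid transfer protein, changed by -0.37 ± 0.10 (limma adjusted p = 0.0249), a call lost without wild-type fed mouse 1, 3 or 4 or wild-type fasted mouse 4 or 5 (adjusted p 0.0509 to 0.0745). The count of changed genes was 5 in place of 8 without wild-type fed mouse 1, 3 or 4. The median of the 24 was 0.04, beside 0.03 for all genes.

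In knockout mice 2 of the 24 rose and 1 fell with fasting, where 1.87% of all genes rose and 1.8% fell. Nsdhl changed by -2.24 ± 0.20 (limma adjusted p = 1.25e-05). Hsd17b11 rose by 0.60 ± 0.13 (limma adjusted p = 0.0179), a call lost without knockout fed mouse 4 or knockout fasted mouse 2 (0.0546 and 0.114), which left 1 of the 24 changed. Fitm2 changed by 0.47 ± 0.12 (limma adjusted p = 0.0439), a call lost without any of the knockout mice or without wild-type fed mouse 3 or wild-type fasted mouse 2 (0.0552 to 0.165). None of the 24 passed the limma test between genotypes in fed mice, in fasted mice, in the interaction or in the mean effect. At an unadjusted p under 0.05 there were 4, 3, 0 and 5, against 13.2%, 10.4%, 12.2% and 10.8% of all genes.

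Of 31 further lipases, hydrolases and regulators, 3 rose and 4 fell in wild-type mice, beside the same 3.3% and 5.92% of all genes. Mgll, which completes the breakdown of triglyceride by cleaving monoglyceride, rose by 0.80 ± 0.09 (limma adjusted p = 2.91e-05). Ddhd2, a triglyceride hydrolase best known from brain, rose by 0.62 ± 0.13 (limma adjusted p = 0.00702), and the chaperone Hspa8 by 0.43 ± 0.12 (limma adjusted p = 0.032). The call of Hspa8 was lost without wild-type fed mouse 1, 2 or 3 or wild-type fasted mouse 2, 3 or 4 (0.0568 to 0.107). The esterases Aadac and Ces3b changed by -0.71 ± 0.16 and -0.57 ± 0.12 and the phospholipase Ddhd1 by -0.52 ± 0.12 (limma adjusted p = 0.00724, 0.00515 and 0.00971). The median of the 31 was 0.11.

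In knockout mice Ddhd2 was the 1 gene of these 31 to change with fasting, at 0.67 ± 0.15 (limma adjusted p = 0.0203), where 1.87% of all genes rose. The call was lost without knockout fed mouse 1 or knockout fasted mouse 2 or 3 (0.0636 to 0.097). Mgll had 0.28 ± 0.10 there (limma adjusted p = 0.171), and its interaction, -0.52 ± 0.13, did not pass (limma adjusted p = 0.193). Aadac and Ces3b had -0.11 ± 0.18 and -0.01 ± 0.14 in knockout mice, with interactions of 0.60 ± 0.24 and 0.56 ± 0.18 (limma adjusted p = 0.33 and 0.275).

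Of the 31, Ddhd2 and Ces1d were called between genotypes, both in the mean knockout effect, which called 1.55% of all genes. None passed the limma test in fed mice, in fasted mice or in the interaction. At an unadjusted p under 0.05 there were 10, 6 and 5 of the 31, against 13.2%, 10.4% and 12.2% of all genes. Ddhd2 lay at 4.51 to 4.92 in knockout fed mice against 5.05 to 5.55 in wild-type fed mice, and at 5.33 to 5.52 against 5.61 to 6.21 in fasted mice, so that the genotypes did not overlap in either feeding state. It was lower by a log2 of -0.50 ± 0.10 (limma adjusted p = 0.0179), a call that ended when knockout fasted mouse 1 was left out (-0.47, adjusted p = 0.0547), and likewise with knockout fed mice 1 and 4 both left out (0.0681). Ces1d, a liver triglyceride hydrolase with close copies beside it in the genome whose signal the probes may share, had -0.48 ± 0.12 (limma adjusted p = 0.0481), a call lost without any of 13 single arrays (0.0571 to 0.166) and kept without wild-type fasted mouse 1, knockout fed mouse 1 or knockout fasted mouse 2.

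For the 3 genes of the 10 with a fasting difference of 1 or more in wild-type mice, the genes most like them over the 16 mice were found by the root mean square difference of gene-centred log2 values among 11524 brighter genes. The 10 genes themselves and predicted or unnamed loci were left out of that pool. Nearest to Plin5 were Pex11a, a factor in peroxisome division, at 0.18, Crat, carnitine acetyltransferase, at 0.22, and Rhbdd2 at 0.26, where Plin5 itself varied by 0.76. Pex11a had fasting differences of 1.44 in wild-type and 1.07 in knockout mice. For Cidec the nearest were Chrna2 and Slc8a1, both at 0.48, and Kcnk1 at 0.55, against its own 0.91. That variation of Cidec came mostly from wild-type fasted mouse 1, at 6.98 against 3.00 to 4.61 in all other mice. Its neighbours thus rest largely on 1 array, and Kcnk1 had fasting differences of only 0.48 in wild-type and 0.07 in knockout mice. For G0s2 they were Pex11a at 0.54, Snord16a at 0.57 and Chrna2 at 0.60, against its own 0.93. Cidec and G0s2 thus had no neighbour as near, for their size, as Pex11a was to Plin5.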

How the data were processed

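Liver RNA of 16 mice was measured on 1 array each, labelled as biological replicates. The deposited values are linear probe set intensities that the authors made with RMA, per the submitters' processing notes, with the version and build not given in the sources used here. Log2 was taken with no pseudocount. Of 35519 probe sets, 21780 had 1 symbol in GEO's platform annotation, and the brightest probe set stood for a gene, which left 19935 genes. limma 3.58.1 in R 4.3.3 fitted 4 group means over all arrays (12 residual and 4.55 prior degrees of freedom), and p was two-sided and adjusted within each contrast. The array number limits the precision.

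All 10 members are described in every contrast, with up to 3 called rises and 3 called falls from each list of related genes. Like patterns took 3 genes each. Members and lists were chosen with earlier results of these data known. Replicate numbers were not used as pairs, since same-numbered mice are not stated to share a litter or day. Their deviations correlated between -0.22 and 0.21, which cannot decide whether they did. The fits were tested on simulated data. Promoters came from RefSeq (GRCm38.p6) and covered 9 of 10 genes. The alternatives were other scalings, filters, probe set rules and variance models, the replicate block, the compared groups alone, and leaving arrays out.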

Additional observations from a re-analysis of the deposited data

Results flagged for a closer look

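In wild-type fasted mice, Plin5 of mouse 3 was 6.61, far below the 7.11 to 7.21 of the other 4, a gap of 0.84 of the group's range. In knockout fed mice, Cidea of mouse 4 was 3.19, above the 2.33 to 2.46 of the other 3, a gap of 0.849 of the range. These were 2 of 30 groups of values examined for a mouse far from the rest, and chance alone flags about 1 in 20. Of the 12 adipocyte markers, 3 were also highest of all mice in knockout fed mouse 4. They were Ucp1, the uncoupling protein of brown fat, at 4.09 against 2.05 to 2.38 in all 15 other mice, Fabp4, the fatty acid-binding protein of fat cells and macrophages, at 5.55 against 3.42 to 4.96, and Retn at 3.09 against 2.55 to 2.91. The other 9 markers were not highest there. Among them Lipe (4.69) and Adipoq (2.25) ranked 2 and Plin1 (3.07) ranked 4 from the highest of 16 mice. Nnat and Trarg1 ranked 6.5 and 8. Lep (2.14), Acvr1c (1.96), Aoc3 (2.21) and Slc2a4 (3.01) ranked 11, 12, 13 and 15, the last near the lowest of all mice (2.98). The mean adipocyte marker level of knockout fed mouse 4, 0.31, was the highest of all 16 mice. That mean includes Ucp1 and Fabp4 and rests mostly on them, so it is not a separate observation. Plin4, Cidec and G0s2 were likewise the highest of the knockout fed group in that mouse. Whether its liver sample held other tissue, and the part of this in its droplet gene values, was not tested.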

How the results depend on the processing

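The number of the 10 genes that changed with fasting in wild-type mice was 5 in all 9 other settings and 5 to 6 with 1 array left out. In knockout mice it was 4 in the main analysis, 1 without knockout fed mice 1 and 4 together and 2 to 5 with 1 array left out. It was 0 for every knockout contrast in all settings run. Under the replicate block the counts were 5 in wild-type and 4 in knockout mice, where Plin2 passed (0.51, adjusted p = 0.0214) and G0s2 did not (1.72, adjusted p = 0.0621). G0s2 in knockout mice also missed the threshold with an intensity trend and robust variance (adjusted p = 0.0999). Plin2 there passed with that setting (0.0358) and with dim genes left out (0.0423). No called value of the 10 genes changed sign. Of 1474 recomputed values, 68 changed sign that passed in neither fit, with adjusted p of at least 0.608. Counts over all genes moved more: 732 genes changed with fasting in knockout mice, 401 with those groups fitted alone, 218 without knockout fed mice 1 and 4, and 330 to 951 with 1 array left out. The knockout effect in fed mice had 135 genes, 76 and 51 in the same settings and 59 to 274 with 1 array left out. In fasted mice it had 107, and 21 to 126. The interaction had 2, 1 in 4 of the settings, and 0 to 8. The mean effect had 309, 171 without knockout fed mice 1 and 4, and 175 to 359. Wild-type fasting had 1838, and 1199 (without wild-type fed mouse 3) to 2006. The cause of these shifts was not tested. Low signal limits Cidea, which lay below the dim limit, and the spread between mice was widest for Cidec and G0s2.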
